A study of Mus musculus with 2 samples.

Results

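Bipolar cells carry the light signal from photoreceptors to the inner retina, and the cells described here are the 673 that the authors labelled bipolar and placed in their cluster 10. They were chosen by those deposited labels alone, and they make up 673 of 5743 bipolar cells and of 30943 cells in the series. The data are single-cell RNA-seq of dissociated mouse retina at 30 days of age, with 1 library for each genotype. The Ptbp1-Ctrl library came from a Chx10-Cre mouse with intact Ptbp1, and the Ptbp1-KO library from a Chx10-Cre;Ptbp1lox/lox mouse. Both mice carried the Cre transgene, which acts in retinal progenitors from early neurogenesis on. Each library was taken to be 1 mouse, so no difference between genotypes could be tested against the spread between animals, and every interval below is a 95% interval that covers counting error only.

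Rod bipolar cells receive input from rods, depolarise when light comes on and express protein kinase C alpha, the product of Prkca. Their response runs through the glutamate receptor mGluR6 (Grm6), which is coupled through a G protein to the channel TRPM1. Cone bipolar cells form many types that contact cones, split into ON types that share the mGluR6 cascade and OFF types that use ionotropic glutamate receptors.

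Cluster 10 held 362 cells in the Ptbp1-Ctrl library and 311 in the Ptbp1-KO library. That was 11.3% (exact binomial interval 10.3 to 12.5%) of the 3194 Ptbp1-Ctrl bipolar cells and 12.2% (11 to 13.5%) of the 2549 Ptbp1-KO bipolar cells, so the intervals overlapped. The cells were shallow. The median number of unique molecular identifiers (UMIs, counted RNA molecules) per cell was 1529 in Ptbp1-Ctrl and 1858 in Ptbp1-KO, which is 0.512 and 0.447 of the medians in cluster 5, the largest bipolar cluster. Among the other bipolar clusters only cluster 20 was as shallow, with medians of 1579 and 1891, and the remaining clusters had medians from 2591 to 7191. The lowest totals in cluster 10, 705 and 727 UMIs, lay just above the 700 UMIs that the authors required of a cell. The libraries shared 63 cell barcodes, of which 1 was in cluster 10 in both.

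Ptbp1, the gene targeted in the Ptbp1-KO mouse (chr10:79854427-79864771, plus strand, mm10), had 20 Ptbp1-Ctrl UMIs in cluster 10 and 0 Ptbp1-KO UMIs. Against a limit of 3 UMIs for the count of 0, its level was 7.24-fold lower in Ptbp1-KO. The upper end of the interval of its log2 ratio was -2.42. The protein, a splicing regulator, keeps many neuronal exons out of mature transcripts. Its neuronal paralog Ptbp2 stood at 235 (Ptbp1-Ctrl) and 236 (Ptbp1-KO) CPM, which is UMIs scaled to a total of 1000000 (log2 ratio 0.01, interval -0.32 to 0.34). The third family member, Ptbp3, had 13 and 5 UMIs, too few to compare.

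Cluster 10 carried the marker set of rod bipolar cells and lacked that of cone bipolar cells. Prkca (chr11:107933387-108343928, minus strand) stood at 8030 (Ptbp1-Ctrl) and 8053 CPM (Ptbp1-KO). In cluster 5 it stood at 7011 and 6644 CPM, and the highest of the other 8 bipolar clusters, cluster 13, had 495 CPM. Car8, a carbonic anhydrase-related protein, was at 650 and 592 CPM in cluster 10, against at most 197 CPM in the other 8. Vstm2b, a membrane protein of the immunoglobulin family, was at 326 and 357 CPM, against at most 83.9 CPM in the other 8. Sebox, a homeobox factor, was at 173 and 123 CPM and the highest level in the other 8 was 46.1 CPM. Bhlhe23 was the exception. This basic helix-loop-helix factor stood at 75.6 and 75.4 CPM, under the 223 CPM of cluster 13. Lrrtm4, a postsynaptic adhesion protein of rod bipolar terminals, reached 9988 and 11138 CPM and at most 1560 CPM in the other 8.

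The ON cascade was present. Trpm1 stood at 3155 and 3601 CPM and Grm6 at 499 and 454 CPM, and Gpr179, the orphan receptor that anchors the cascade's RGS proteins, at 287 and 360 CPM. In cells thinned at random to 1000 UMIs each, which removes the difference in depth, 91.4% of Ptbp1-Ctrl and 92.4% of Ptbp1-KO cells of cluster 10 held a Trpm1 UMI. The same shares were 93.8% and 94.1% in cluster 5 and 1.25% and 1.77% in rods, which do not express the gene, so the cluster 10 shares lay far above that background. Without thinning, at median depths of 1529 and 1858 UMIs, the shares in cluster 10 were 92.8% and 94.2%. Thinning left out 61 and 20 cells of cluster 10 that had fewer than 1000 UMIs.

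Markers of other bipolar types were low. The cone bipolar list (Scgn, Zfhx4 and Lhx3) summed to 104 and 95.7 CPM, close to the 111 and 121 CPM of cluster 5 and far below the 1026 and 1046 CPM over the other 8 clusters. The OFF list summed to 323 and 207 CPM against 2616 and 2328 CPM there, and nearly all of it was Grik1, a kainate receptor subunit, at 318 and 199 CPM. Irx6, Vsx1, Tacr3 and Neto1, the other OFF markers, had at most 3.15 CPM each. By its summed markers the cluster as a whole is rod bipolar-like, as cluster 5 is, and its subgroups are taken apart below. Over 4194 genes with a mean of at least 50 CPM, log2(CPM + 10) in cluster 10 had a Pearson correlation of 0.893 with cluster 5 and of 0.529 to 0.674 with the other 8 clusters. This is a description across genes of profiles that share their libraries, not a test. Clusters 5 and 10 together held 1133 and 1001 cells, of which cluster 10 was 32.0% and 31.1%.

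**Figure D1:**
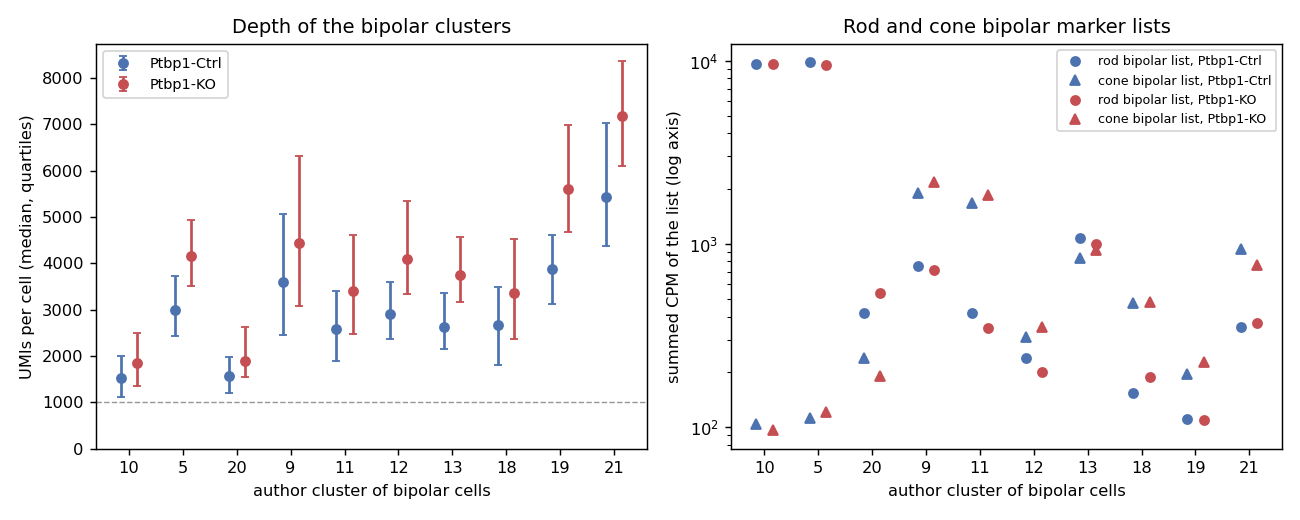
Left, median UMIs per cell with quartiles (bars) for the 10 bipolar clusters in each library, with the dashed line at 1000 UMIs. Right, summed CPM of the 6 rod bipolar markers (circles) and 3 cone bipolar markers (triangles) on a log axis. Clusters 10 and 20 are the shallow clusters, and the rod bipolar list is at 9437 to 9774 CPM in clusters 10 and 5, against 480 and 465 CPM over the other 8.

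The cells of cluster 10 were not of 1 kind. Graph clustering of the 673 cells alone gave 4 subgroups, which are numbered here in no particular order. Since these groups were cut from the same counts, their levels are a description. The largest, subgroup 3, had 348 cells and the clearest rod bipolar profile. Its rod bipolar list summed to 12318 (Ptbp1-Ctrl) and 12740 CPM (Ptbp1-KO), above the 9774 and 9437 CPM of cluster 5. Prkca reached 10069 and 10786 CPM there, Trpm1 4413 and 4874 CPM, and Lrrtm4 14241 and 15245 CPM. The list of 7 rod markers, among them Gnat1, Pde6a, Nrl, Nr2e3, Cnga1 and Sag, summed to 3950 and 2875 CPM, below the 6042 and 4712 CPM of cluster 5. Among its 10 leading genes by fold were Sh2d5, Grin1, an NMDA receptor subunit, and Igf1, a growth factor. Only subgroup 3 is called rod bipolar-like below, since most leading genes of subgroups 1 and 4 are photoreceptor genes. Those of subgroup 2, apart from haemoglobin, were higher in rods.

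Subgroup 2, with 238 cells, held rod RNA beside rod bipolar RNA. Its rod list summed to 16340 (Ptbp1-Ctrl) and 19141 CPM (Ptbp1-KO), which is 39.8% and 50.9% of the level in rods, and its rod bipolar list to 8166 and 6339 CPM. Apart from haemoglobin, 6 genes led the subgroup, among them 4930419G24Rik, Tmem108, 2310030A07Rik, Dpp10 and Gulp1. All 6 were higher in rods. Dpp10, a subunit of potassium channels, stood at 746 and 1482 CPM in subgroup 2, at 8.91 and 21 CPM in subgroup 3, at 186 and 185 CPM in cluster 5 and at 1379 and 2008 CPM in rods. Tmem108 was at 571 and 640 CPM in subgroup 2 and at 4.45 and 6.01 CPM in subgroup 3, with 940.5 and 924 CPM in rods. At 1000 UMIs per cell, 55.0% (46.0 to 63.7%) and 68.3% (57.1 to 78.1%) of subgroup 2 cells held at least 2 UMIs of the 6 genes. The shares were 63.4% and 72.4% in rods and 9.62% and 8.13% in cluster 5. In subgroup 3 they were 0 of 118 cells, which allows up to 3.08%, and 1 of 179 cells. The 6 genes were chosen after their values were seen.

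Subgroup 1 was a set of 30 cells with the markers of cones and of rod bipolar cells at once. Arr3 (cone arrestin) stood at 4894 and 4203 CPM and Opn1sw (the short-wavelength opsin) at 4249 and 4941 CPM, next to Prkca at 5497 and 3858 CPM. These cells were deep, with a median of 4890 UMIs. In the whole of cluster 10, 18 of 362 Ptbp1-Ctrl and 12 of 311 Ptbp1-KO cells had at least 10 UMIs of the 6 cone markers, and they held 94.8% and 93.1% of all cone marker UMIs. Cluster 5 had 0 and 2 such cells. Subgroup 4, with 57 cells, had Reep6, Gnat1, the rod transducin alpha subunit, and Nrl, a rod transcription factor, among its leading genes. Its rod list summed to 33030 CPM in the Ptbp1-Ctrl library and 21808 CPM in the Ptbp1-KO library, 80.4% and 58.0% of the level in rods. Dpp10 and Tmem108 were each at 66.8 CPM or less in both libraries. The rod bipolar list of subgroup 4 summed to 9141 and 10281 CPM, so these cells held rod and rod bipolar RNA.

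Scores of a doublet caller moved with the subgroups. The top 5% of Scrublet scores in each library took 23 of 30 cells in subgroup 1, 90 of 238 (37.8%) in subgroup 2, 7 of 57 in subgroup 4 and 1 of 348 in subgroup 3. For all of cluster 10 the share was 18% in both libraries, against 5.84% and 9.28% in cluster 5. The part that 2 cells in 1 droplet, or free photoreceptor RNA, has in subgroups 1, 2 and 4 was not tested. Markers of Müller glia, amacrine, ganglion and horizontal cells and microglia were low in cluster 10, with list sums of at most 263, 45.0, 14.5, 18.9 and 9.45 CPM.

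The libraries divided differently among the subgroups. Subgroup 3 took 43.6% (38.5 to 48.9%) of Ptbp1-Ctrl and 61.1% (55.4 to 66.5%) of Ptbp1-KO cells, and subgroup 2 took 40.6% (35.5 to 45.9%) and 29.3% (24.3 to 34.7%). Subgroup 4 took 11% and 5.47%, and subgroup 1 took 4.70% and 4.18%. The intervals of subgroups 2 and 3 did not overlap between libraries, but with 1 mouse a genotype the difference cannot be told apart from a difference between 2 preparations. Subgroups were rebuilt with 1 set of settings, and a finer resolution gave 7.

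**Figure D2:**
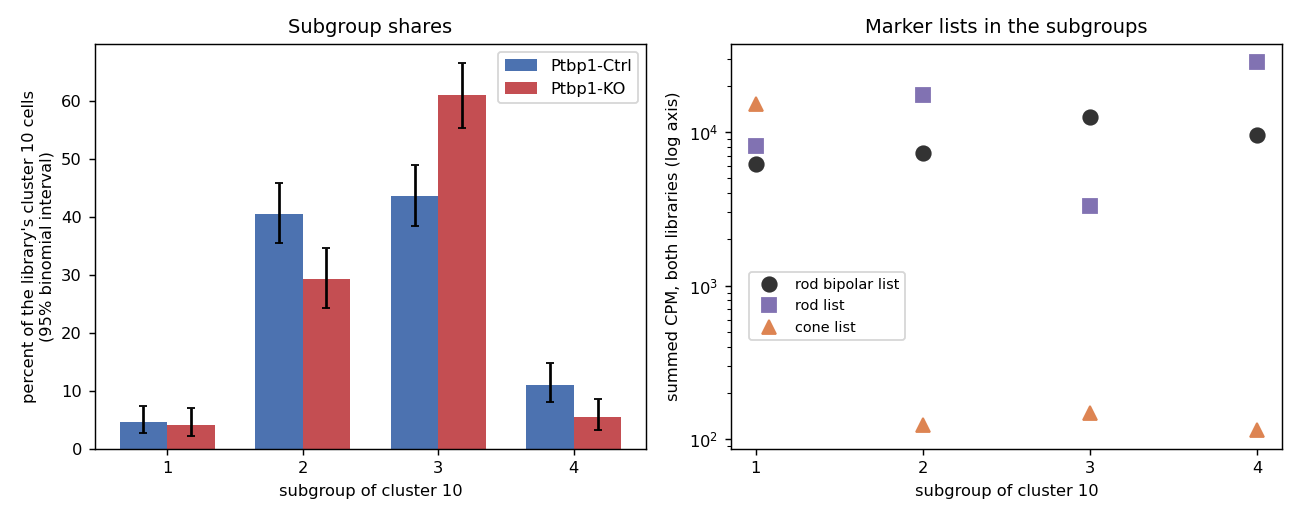
Left, share of each library's cluster 10 cells in the 4 subgroups, with 95% binomial intervals. Right, summed CPM of the rod bipolar, rod and cone marker lists in each subgroup, both libraries together, on a log axis. Subgroup 3 has the highest rod bipolar and lowest rod level, subgroups 2 and 4 are high in rod genes, and subgroup 1 alone is high in cone genes.

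Set against cluster 5 at 1000 UMIs per cell, cluster 10 had less of many short, abundant transcripts and slightly more of long ones. Of 3419 genes with a mean of at least 50 CPM and at least 50 UMIs, 111 (3.25%) were at least 2-fold higher in both libraries and 315 (9.21%) at least 2-fold lower in both. Gng13, the gamma subunit of the mGluR6 G protein, was among the 10 lowest, at 615 against 3195 CPM in Ptbp1-Ctrl (log2 ratio -2.38, -2.60 to -2.16) and 701 against 4347 CPM in Ptbp1-KO (-2.63, -2.84 to -2.43). Pcp4, a calmodulin regulator, was at 851 against 4376 CPM and 742 against 4004 CPM. Tmsb10 (an actin-binding thymosin), Mif (a cytokine), Tuba1a (a tubulin), Bex1, Irf2bpl, 1810037I17Rik and Dbp, a clock output factor, were also among them, with log2 ratios between -2.82 and -2.08. These ratios compare clusters built on these genes, so they are a description and not a test.

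The ratio was ordered by gene length. Among genes spanning up to 10 kb, the median log2 ratio of cluster 10 to cluster 5 was -0.84 in Ptbp1-Ctrl and -1.05 in Ptbp1-KO over 625 genes. It was -0.39 and -0.37 for 10 to 30 kb, 0.07 and 0.08 for 30 to 100 kb and 0.28 and 0.32 for 100 to 300 kb. For the 249 genes over 300 kb it was 0.35 and 0.44, and 204 of the 315 genes that were 2-fold lower spanned up to 10 kb. In cells of 1000 to 2000 UMIs alone, where fewer genes passed, the medians ran from -0.93 and -1.04 to 0.70 and 0.84. That comparison had 64 and 14 cells of cluster 5 against 210 and 154 of cluster 10, and the Ptbp1-Ctrl median depths still differed, at 1859.5 and 1463 UMIs. The same order was seen in subgroup 3 (-1.06 and -1.24, up to 0.50 and 0.53). In subgroup 2 it reached 0.33 and 0.27 at 100 to 300 kb and was 0.15 and 0.16 beyond. Cluster 20, the other shallow cluster, set against cluster 12 gave -1.08 and -1.13 for genes up to 10 kb and 0.35 and 0.38 for those over 300 kb. Deeper clusters other than cluster 21 also had higher long genes, to differing degrees. Cluster 21, with median depths of 5432.5 and 7191 UMIs, gave -0.07 and -0.14 over cluster 5 for genes over 300 kb. Cluster 9, with median depths of 3602 and 4445 UMIs, gave 0.56 and 0.56 over cluster 5 for genes over 300 kb and -0.15 and -0.18 for those up to 10 kb, and cluster 11 gave 0.39 and 0.45, and -0.16 and -0.29. Whether intron reads were counted is not given in the sources used here, and what that has to do with the order by length was not tested.

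**Figure D3:**
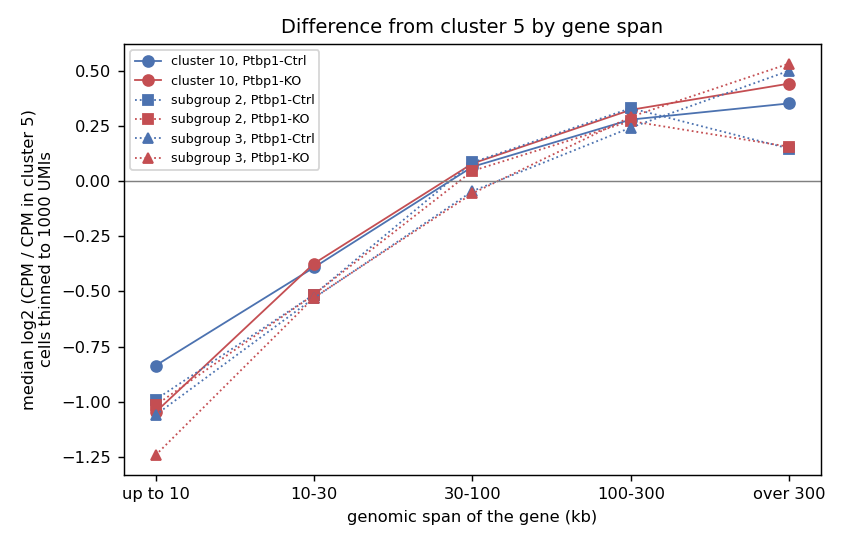
Median log2 ratio of CPM to that of cluster 5 (vertical axis) by genomic span of the gene in kb (horizontal axis), for all of cluster 10 (solid lines), subgroup 2 and subgroup 3 (dotted lines) in each library. In all 6 lines genes up to 10 kb lie between -1.24 and -0.84 and those over 300 kb above 0.

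Ribosomal protein genes showed this as a class. Of 74 that passed the minimum, 73 were lower in cluster 10 than in cluster 5 in both libraries and 25 were at least 2-fold lower in both, with median log2 ratios of -0.89 and -1.18. Over all 3419 genes, 1372 were lower and 1361 higher in both libraries. Per cell, ribosomal protein genes took medians of 1.68% (Ptbp1-Ctrl) and 1.32% (Ptbp1-KO) of the UMIs, against 3.65% and 3.57% in cluster 5. In cluster 10, 67.1% and 75.6% of cells lay below the 5th percentile of cluster 5. Genes over 100 kb took 38.1% and 39.3% of UMIs in cluster 10 and 30.6% and 29.9% in cluster 5. Malat1, a nuclear-retained RNA, took 2.78% and 3.31% against 2.49% and 2.88%.

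Mitochondrial RNA was spread widely in cluster 10. Its median share of a cell's UMIs was 5.73% and 5.09%, near the 5.03% and 4.91% of cluster 5. The quartiles were 1.79 to 9.83% and 1.02 to 9.77% in cluster 10, against 3.99 to 6.15% and 3.96 to 6.08% in cluster 5. By subgroup the medians over both libraries were 8.49% in subgroup 3, 7.07% in subgroup 4, 4.19% in subgroup 1 and 2.77% in subgroup 2. The authors had scaled out mitochondrial content before they clustered the cells. What RNA quality has to do with these differences was not tested.

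**Figure D4:**
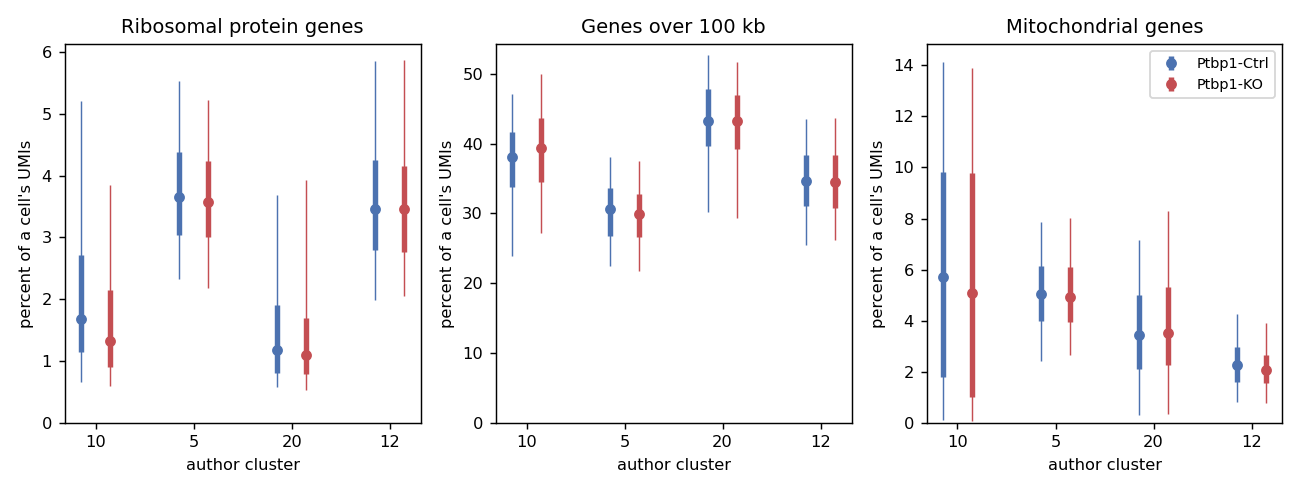
Share of a cell's UMIs from ribosomal protein genes, genes over 100 kb and mitochondrial genes in clusters 10 and 5 and in clusters 20 and 12, by library. Points are medians over cells, thick bars quartiles and thin bars the 5th to 95th percentiles. The shallow clusters 10 and 20 lie below clusters 5 and 12 in ribosomal protein genes and above them in long genes, and cluster 10 has the widest mitochondrial range.

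The gene groups of rod bipolar function differed from cluster 5 in both directions. The counts below stand beside 1372 lower and 1361 higher in both libraries among all 3419 genes. Of the 6 rod bipolar markers Prkca was higher (log2 ratios 0.26 and 0.48) and the other 5 were lower, Sebox the most (-1.97 and -2.33), followed by Bhlhe23 (-1.07 and -1.82). Pcp2, a Purkinje and bipolar cell protein that regulates Go signalling, was lower as well, at 2017 against 6177 CPM and 1804 against 5987 CPM. Of 12 transcription factors that passed, 9 were lower in both libraries, among them Neurod4 (-1.61 and -2.01) and Isl1 (-0.96 and -1.02). St18 (0.10 and 0.19) and Crx (0.18 and 0.52) were higher. In the mGluR6 cascade 4 of 10 genes were higher in both libraries and 4 lower. Rgs7 (0.23 and 0.51), Trpm1 (0.14 and 0.21), Grm6 (0.31 and 0.00) and Rgs9bp (0.63 and 0.11) were the higher ones, and Gnao1 (-0.66 and -0.77), the Go alpha subunit, Gnb3 (-0.45 and -0.62), Gpr179 (-0.23 and -0.09) and Gng13 the lower ones.

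Lists of receptors, channels and adhesion genes had small ratios. Over all 3419 genes 1361 were higher in both libraries. Of those spanning 100 to 300 kb 78.7% and 79.6% were higher, and of those over 300 kb 89.6% and 91.6%. The counts of higher genes below are thus to be read beside the share among long genes. All 7 glutamate receptor genes that passed were higher in both libraries, with medians of 0.33 and 0.62 and with Grm5 at 1033 against 819 CPM and 1144 against 861 CPM. Of 10 channel genes 9 were higher, among them Cacna2d3, a calcium channel subunit (0.51 and 0.87), and Scn8a, a sodium channel (0.48 and 0.65). Of 14 adhesion genes 12 were higher, among them Dscaml1 (0.73 and 0.85). Pcdh15 (1.83 and 1.60), a cadherin, was the 1 past 2-fold. Of 6 genes for inhibitory receptors 2 were higher and 3 lower, with medians of -0.08 and -0.02. Of 17 synaptic ribbon genes 10 were higher in both libraries and 5 lower, with medians of 0.41 and 0.28. Those past 2-fold were Cplx4 (1.14 and 1.43), which was higher, and Cplx3 (-1.98 and -2.30) and Vamp2 (-1.34 and -1.34), which were lower. In subgroup 3 alone, 0 of 16 ribbon genes and 0 of 14 adhesion genes were at least 2-fold higher, beside 35 of 2997 genes in all. Both Cplx genes encode complexins of retinal ribbon synapses, and Cplx3 is the rod bipolar form. The stress list holds 12 genes, of which 4 passed. Its early response gene Fos was at 33.2 against 100.1 CPM and 34.4 against 87.1 CPM, and all 4 were lower in both libraries, as were 1372 of the 3419 genes. Among genes up to 10 kb 14.9% and 13% were higher.

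Photoreceptor genes were among the highest in cluster 10, and this depended on the subgroup. Arr3, Opn1sw and Pde6h, all cone genes, led with log2 ratios between 2.43 and 3.99, and Rdh12, Fabp12, Pcdh15 and Thrb were among the 15 highest. All 7 rod markers were higher, with medians of 1.22 and 0.97. In subgroup 3 alone, the rod markers were lower than in cluster 5 in 5 of 7 cases and higher in 1, with medians of -0.55 and -0.42. Without the other subgroups, 35 genes were at least 2-fold higher than in cluster 5 and 425 lower, among 2997. Of these, 20 of the 35 and 256 of the 425 were past 2-fold for the whole cluster too, which is 20 of its 111 and 256 of its 315. Of the 111 higher genes 66 passed in subgroup 3, and 28 of those were higher there in both libraries. All 307 of the 315 lower genes that passed in subgroup 3 were lower there in both libraries, and 57 of 74 ribosomal protein genes were at least 2-fold lower.

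Long noncoding RNAs were among the genes higher in subgroup 3 than in cluster 5. Of the 35, 17 were protein-coding by annotation, 8 lincRNA and 8 antisense, and lincRNA had medians of 0.52 and 0.65 over the 42 tested. 4930555F03Rik was at 1661 against 555 CPM and 1710 against 525 CPM, and 4930509J09Rik at 1466 against 540 CPM and 1190 against 299 CPM. Gm13963, Gm28307, Gm48747 and Gm11418 were higher as well. The highest were Gm10801 and Gm10800, near-identical short genes whose reads may be shared. Gm10800 stood at 737 against 178 CPM and 1391 against 358 CPM. Gabra5, a GABA-A receptor subunit, was at 449 against 172 CPM and 464 against 125 CPM. Antisense genes may hold reads of their partner strand where strand was not used in counting, which the sources used here do not give.

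Against the other 8 bipolar clusters pooled, at 1000 UMIs per cell, 232 of 3760 genes (6.17%) were at least 2-fold higher in both libraries and 404 (10.7%) lower. Lrrtm4 and Prkca were among the 15 highest, with log2 ratios of 5.0 and 5.23 and of 4.93 and 5.31. Others were Asic2, an acid-sensing channel, at 3565 against 57.5 CPM and 3893 against 47.2 CPM, Sorcs3 and Sorl1, sorting receptors, Slc4a4, a bicarbonate transporter, Il1rap and Ano3. Most of the rest were noncoding, led by Gm28807 at 492 against 1.5 CPM and 316 against 1.31 CPM. Among the 10 lowest, the protocadherin gene Pcdh9 was at 46.5 against 5296 CPM and 34.4 against 4927 CPM, and the contactin gene Cntn5 at 46.5 against 2977 CPM and 17.2 against 3403 CPM. Kcnb2, Slit2, Samsn1, Il1rapl2, Ptprz1, Cdh8, Adcy2 and Unc13c completed the 10. All of the 9 tested members of the type 1 to 6 lists were at least 2-fold lower in both libraries. The 2 tested members of the type 7 list, which are also rod bipolar markers, were at least 2-fold higher, and the 1 of types 8 and 9 differed in sign between libraries (0.27 and -0.91).

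Between genotypes, few genes of cluster 10 were past 2-fold. Of 3766 genes that passed the minimum, 24 (0.637%) were at least 2-fold higher in Ptbp1-KO and 22 (0.584%) at least 2-fold lower, with a median log2 ratio of -0.01 and a 5th to 95th percentile range of -0.55 to 0.52. In cluster 5, with more UMIs, 8 of 3797 genes were higher and 10 lower, in a range of -0.34 to 0.35. Of the 46 genes past 2-fold in cluster 10, 30 passed the minimum in cluster 5, 24 of them had the same direction there and 11 were past 2-fold the same way. Both comparisons rest on the same pair of mice.

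No rod bipolar identity gene was past 2-fold. Prkca had a log2 ratio of 0.00, and Trpm1 was 3155 (Ptbp1-Ctrl) and 3601 CPM (Ptbp1-KO) (0.19). Grm6 was 499 and 454 CPM (-0.14, interval -0.37 to 0.09). Sebox was the 1 rod bipolar marker whose interval lay below 0, at 173 and 123 CPM (-0.49), and its ratio in subgroup 3 was -1.12 (-1.78 to -0.49), with 53 and 36 UMIs. In cluster 5 Sebox stood at 565 and 594 CPM. None of 10 mGluR6 cascade, 18 ribbon synapse, 7 glutamate receptor, 12 channel or 13 transcription factor genes was past 2-fold, beside shares of 0.637% higher and 0.584% lower over all genes. Of 17 adhesion genes 1 was, the teneurin gene Tenm2 (1.07, and 1.24 in cluster 5), and of 74 ribosomal protein genes Rpl29. Of 2 Müller glia genes Glul, glutamine synthetase, was lower (-1.01, -1.58 to -0.46) and was at 0.48 in cluster 5.

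Of the 10 lowest genes in Ptbp1-KO some had like ratios in cluster 5 and others were near 0 there. Sema3e, a secreted semaphorin (chr5:14025276-14256689, plus strand), had 90 UMIs in 68 Ptbp1-Ctrl cells and 14 UMIs in 11 Ptbp1-KO cells. Its levels were 142 and 20.3 CPM (log2 ratio -2.80, -3.73 to -1.98), and in cluster 5 the ratio was -2.74 (-3.10 to -2.40). Gm47283 was at 1504 and 328 CPM (-2.20, -2.41 to -1.99) and at -2.44 in cluster 5. Atp2c1, a Golgi calcium and manganese pump, was at 343 and 139 CPM (-1.30, -1.66 to -0.95) and at -1.61 in cluster 5. Atp7a, a copper pump, Mid1, a ubiquitin ligase, and Rpl29, a ribosomal protein gene with many near-identical copies, had ratios of -1.43, -1.20 and -1.28, and of -1.0, -1.15 and -1.08 in cluster 5. Gm19667, which was at 275 CPM in rods of Ptbp1-Ctrl and 26.6 CPM in those of Ptbp1-KO, was at -2.58 in cluster 10 and -3.53 in cluster 5. It lies within the span of Atp2c1 on the opposite strand, so these genes are not separate loci. Snrpe (-1.15) and Mon2 (-1.15) had intervals below 0 here and ratios of -0.00 and 0.06 in cluster 5, while Ssbp4 was at -1.38 here and -0.48 there. Like ratios were seen in rods and cones for Gm47283 (-2.16 and -2.51) and Rpl29 (-1.15 and -1.13). Those of Atp2c1 (-0.27 and -0.26) and Mid1 (-0.51 and -0.54) were smaller there, and Sema3e did not pass the minimum there.

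The genes that were higher divided between those found in many cells and those of a few. L3mbtl4, a chromatin-associated protein, had 9 UMIs in 8 Ptbp1-Ctrl cells and 67 in 47 Ptbp1-KO cells (2.78, 1.77 to 3.97), and its ratio was 2.52 in cluster 5. Abcd4, a lysosomal transporter for vitamin B12, was at 244 and 658 CPM (1.43, 1.17 to 1.70), with 155 UMIs in 126 cells and 454 in 212, and at 1.39 in cluster 5. Gm48693 (2.25), Abhd14b (1.75), a hydrolase, and Dnah6 (1.59), a dynein heavy chain, were at 1.62, 1.96 and 1.20 in cluster 5. Abhd14b (2.63 and 2.48) and Abcd4 (1.03 and 1.58) were also higher in rods and in cones. L3mbtl4, Gm48693 and Dnah6 did not pass the minimum in rods or cones. The haemoglobin genes Hbb-bs, Hba-a1, Hbb-bt and Hba-a2 had 0 UMIs in Ptbp1-Ctrl, and a single Ptbp1-KO cell held 2949 of their 2951 UMIs. Diaph2, a formin, had 23 and 82 UMIs (1.71). In the cone cells of the series it stood at 99.7 (Ptbp1-Ctrl) and 1224 CPM (Ptbp1-KO). Without the cells that had at least 10 cone or haemoglobin UMIs its ratio was 0.52 (-0.29 to 1.36). Cngb3, a cone channel subunit that was picked after its values were seen, had 112 and 202 UMIs in all of cluster 10 (0.73, 0.39 to 1.08) and 13 and 88 UMIs without those cells (2.65, 1.80 to 3.62), and its ratio in cluster 5 was 2.50.

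**Figure D5:**
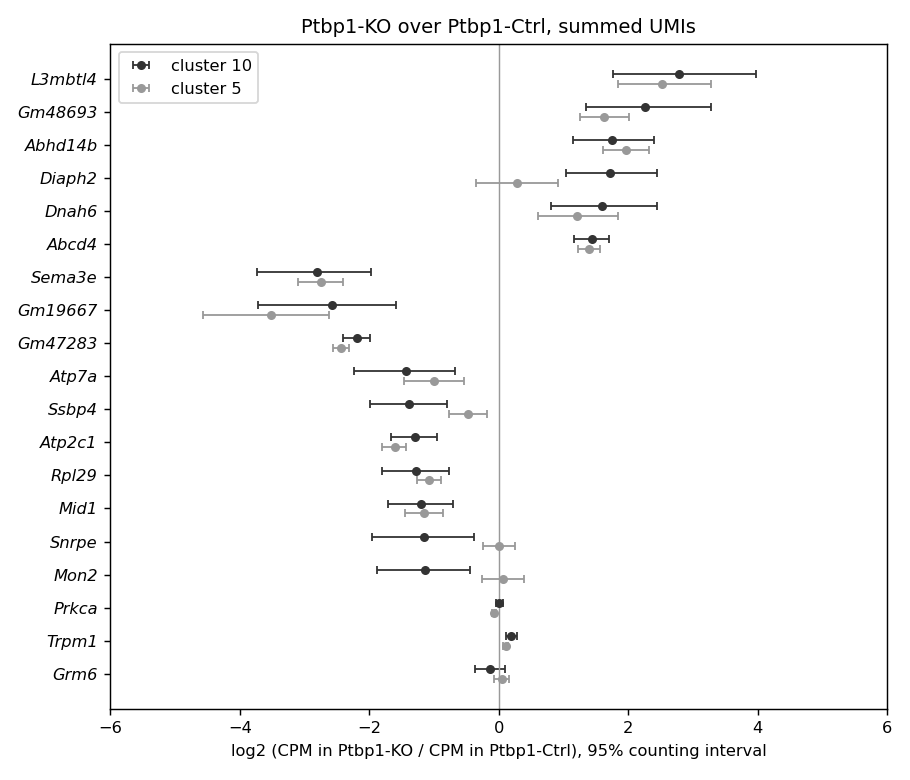
Log2 ratio of CPM in Ptbp1-KO to CPM in Ptbp1-Ctrl (horizontal axis) in cluster 10 (dark) and cluster 5 (grey), with 95% counting intervals, for the 16 genes that were highest or lowest in cluster 10 apart from haemoglobin, and for Prkca, Trpm1 and Grm6. Most points of the clusters lie close together, with Diaph2, Gm19667, Ssbp4, Snrpe and Mon2 apart, and the 3 marker genes lie near 0.

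Since the libraries differed in subgroup shares, the genotypes were also compared in subgroup 3 alone. There 31 of 1987 genes were at least 2-fold higher in Ptbp1-KO and 17 lower. Of the 46 genes past 2-fold in the whole cluster 15 passed the minimum in subgroup 3, and 12 of those were at least 2-fold the same way. These cells are part of the whole cluster, so the comparisons are not independent. Sema3e was at 187 and 30.1 CPM (-2.64, -3.80 to -1.62), Abcd4 at 370 and 911 CPM (1.30, 0.95 to 1.67) and L3mbtl4 at 8.91 and 141 CPM. The intervals of Gm19667 (-1.37, -3.59 to 0.60), Snrpe (-1.05, -3.05 to 0.82) and Diaph2 (1.24, -1.15 to 4.54) held 0 there. The haemoglobin genes had 1 UMI there.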

How the data were processed

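Single-cell libraries were made with the 10x Genomics 3' v3.1 kit from dissociated retina. Per the labels and the study's methods the authors aligned reads to mm10 with Cell Ranger 7.0.1 and used Seurat 4, with cells filtered to 200 to 5000 genes, 700 to 10000 UMIs (limits left out) and under 20% mitochondrial UMIs. The gene annotation and the use of intron reads are not given in the sources used here. The deposited table holds raw UMI counts of 25778 genes in 30943 cells, and the deposited cell table gives cluster, cell type, library and mitochondrial percent. Its other 2 per-cell columns were not used. The cluster 10 sums were 634964 UMIs (Ptbp1-Ctrl) and 689598 UMIs (Ptbp1-KO).

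UMIs were summed by library and scaled to CPM, with exact Poisson intervals. Shares have Clopper-Pearson intervals, and log2 ratios exact conditional binomial intervals. A count of 0 was limited at 3 UMIs. Clusters were compared after thinning each cell to 1000 UMIs. With 1 library a genotype no test was run, and the study's cell-wise rank test was not used. Genes were named from marker and pathway lists, and by rule: against other clusters the 15 highest and 10 lowest by the smaller of both libraries' log2 ratios, between libraries the 10 highest and 10 lowest, and 10 leading genes for each subgroup. The cells, lists and rules were chosen with earlier results of these data known, and the haemoglobin, nuclear RNA and 6-gene rod lists were added after seeing the data. Of the 4 nuclear RNAs Malat1 is described.

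Subgroups came from Leiden clustering (scanpy 1.11.5, resolution 0.5). Scrublet's automatic threshold called 0% of cells in both libraries and was not used, so doublet scores served by rank. Gene spans, from GENCODE vM21 (GRCm38), were matched by symbol for 3400 of 3419 genes compared. TMM factors came from edgeR 4.0.16. The ratio and thinning steps were tested on simulated data. Alternatives were other depths, minimum levels, scalings and left-out cells. Some members of the lists are not reported here by name.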

Additional observations from a re-analysis of the deposited data

How the results depend on the processing

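No paired analysis was possible because each genotype is 1 library and the labels give no replicate numbers, and for the same reason no replicate could be left out. The share of bipolar cells was 10.2% (Ptbp1-Ctrl) and 11.1% (Ptbp1-KO) without the top 5% of doublet scores, 9.81% and 11.6% in cells of at least 1000 UMIs, and 32.0% and 31.1% of clusters 5 and 10. Thinned to 1000 UMIs, where every cell weighs alike, the rod bipolar list summed to 9890 and 10687 CPM, the rod list to 12140 and 8526 CPM and the cone list to 947 and 770 CPM. Alternatives chosen after seeing the data were cells of 1000 to 2000 UMIs, cells without cone or haemoglobin UMIs, subgroup 3 and the other denominator. In cells of 1000 to 2000 UMIs, with 489 genes against cluster 5 and 1201 against the other 8, fewer genes were past 2-fold: 30 higher and 45 lower, and 114 and 120. The median for genes over 300 kb was then 0.70 and 0.84. In subgroup 3 alone 35 genes were higher than in cluster 5. Depths of 700 and 1500 UMIs and leaving out top doublet scores or cone-marker cells kept these counts within 1.5 times. Between genotypes, a minimum of 200 CPM left 5 genes higher and 3 lower, and no minimum gave 37 and 40. The lower genes numbered 46 without top doublet scores and 37 without the tenth of cells highest in rod markers. The cause was not tested. Sema3e was at -1.91 after thinning. Centring and TMM factors gave 24 higher and 21 or 22 lower. Intervals of some named genes came to hold 0, such as Diaph2 without top doublet scores (0.62, -0.35 to 1.62) and Mon2 after thinning (-1.08, -2.25 to 0.01). At 4 subgroups, resolution 0.3 gave 4 and 1.0 gave 7. Depth limits single genes: 50 UMIs over both libraries is the least compared.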
